A study of Mus musculus with 30 samples.

Results

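The mRNAs of the mTOR kinase complexes and of the TSC complex were examined in cultured mouse spermatogonial stem cells (SSCs). The set was a list of 10 genes, *Mtor*, *Rptor*, *Rictor*, *Mlst8*, *Akt1s1*, *Deptor*, *Tsc1*, *Tsc2*, *Tbc1d7* and *Rheb*, chosen by name and not by any measured value. Of these, 9 had an expression level among the 13904 genes of the RNA-seq table, 7 had an mRNA half-life among the 5806 transcripts of the SLAM-seq tables, and 6 had both. *Mlst8* had only half-lives, and *Deptor*, *Tsc2* and *Tbc1d7* had only expression levels.

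SSCs are the self-renewing cells that sustain sperm production, and NANOS2 is an RNA-binding protein that they need to persist. The cells were grown from P7 testes of mice of mixed C57BL/6 and DBA/2J background, in which *Nanos2* carried an N-terminal tag (V5, myc, a PreScission protease site, His and EGFP). A Nanos2TAG/+ line, with 1 tagged allele (line 4), and a Nanos2TAG/TAG line, with both alleles tagged (line 5), were each measured by 1 RNA-seq library and by 12 SLAM-seq libraries, 2 at each of 0, 30, 60, 120, 540 and 1440 min of chase. Each genotype was thus 1 line. Both lines express NANOS2, and neither lacks it, so a difference between them is not a difference between cells with and without NANOS2. The RNA-seq libraries also differed in the extraction reagent, which was QIAzol for the Nanos2TAG/+ line and Trizol for the Nanos2TAG/TAG line. Genotype, line and reagent cannot be told apart. In the RNA-seq table the line of each column was read from its name (GG for both alleles tagged, Gp for tag over plus). The SSCs were kept on mouse embryonic fibroblast feeders. Feeders were depleted before the RNA was taken. Per the study's methods, both the RNA-seq and the SLAM-seq used SSCs sorted by flow cytometry, with a gate set to leave out remaining feeder cells.

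The kinase mTOR works in separate complexes. In mTORC1, which stimulates protein synthesis and restrains autophagy, it is joined by the scaffold RAPTOR (*Rptor*) and the inhibitor PRAS40 (*Akt1s1*). In mTORC2, which phosphorylates AKT, the scaffold is RICTOR. mLST8 and the inhibitor DEPTOR are found in both. The GTPase RHEB switches mTORC1 on at the lysosome, and the TSC complex, made of TSC1, TSC2 and TBC1D7, switches RHEB off. In the male germline, mTORC1 activity is known to favour the differentiation of spermatogonia over their maintenance. The study also cites work in which RAPTOR was needed to maintain the SSC pool and RICTOR for spermatogonia to differentiate. NANOS2 is known to bind mTOR protein and hold it away from mTORC1.

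*Rictor* and *Rheb* were in the study's list of 500 NANOS2 targets, and the other 8 genes were not. That list came from CRAC, in which the RNA crosslinked to the purified tagged protein is sequenced, and it ranked transcripts by their CRAC signal over their expression. It holds only the top of a longer ranked list of bound transcripts, so absence from it does not show that a transcript was unbound. Expression was part of the ranking, so the levels of *Rictor* and *Rheb* are no independent evidence about targets. The CRAC signal itself was not analysed here.

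The 3′ UTR is the part of an mRNA after the stop codon, where NANOS and Pumilio proteins usually bind. The letters of the study's NANOS2 consensus (AUGAAAU or AUGAAUU, and the forms with U as the base after AU, which are AUUAAAU and AUUAAUU) were searched on the sense strand of the annotated 3′ UTR of 1 principal transcript per gene (GRCm38, GENCODE M21). The matches of the target genes *Rictor* and *Rheb* are shown so that they can be set beside those of the other members. Each is given 5′ to 3′, with the match in capitals and 11 bases on each side.
Rictor site A: aacccguguucAUUAAAUgucagcagugc
Rictor site B: uguuuaagacuAUUAAAUuauagcagaaa
Rictor site C: uaguaugaaaaAUUAAUUuaugccaaaaa
Rictor site D: aaaugauguaaAUUAAAUuagcuuugaaa
Rheb site: auuuuaucggcAUUAAUUuuuucagugua
The sites of *Rictor* lie in its last exon (exon 38, plus strand), at chr15:6797910-6797916, chr15:6798544-6798550, chr15:6799799-6799805 and chr15:6799986-6799992. They start 1674, 2308, 3563 and 3750 bases after the stop codon in a 3′ UTR of 4165 bases. The site of *Rheb* lies in exon 8 (chr5:24803392-24803398, minus strand), 266 bases after the stop codon in a 3′ UTR of 841 bases. The matches of both genes are only of the forms AUUAAAU and AUUAAUU, with U as the base after AU. Sites A, B and D of *Rictor* contain AUUAAA, a variant of the polyadenylation signal, as any AUUAAAU match does.

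Matches were not particular to the targets. Of the 10 genes, 5 held at least 1 match, and the 3 that were not targets were *Tsc1*, *Tsc2* and *Deptor*. The sites of both TSC genes are shown for comparison with those above.
Tsc1 site: uuggugucagaAUGAAAUuaaugggggca
Tsc2 site: uguacuccuacAUGAAAUaaacugcacac
Both have the AUGAAAU form. The site of *Tsc1* is in exon 23 (chr2:28690507-28690513, plus strand), 3334 bases into a 3′ UTR of 3994 bases, and that of *Tsc2* in exon 40 (chr17:24596534-24596540, minus strand), 65 bases into one of 668 bases. The *Tsc2* match overlaps AAUAAA, the common polyadenylation signal. *Deptor* held 4 matches in a 3′ UTR of 7136 bases, the last of them 23 bases from its end and overlapping AAUAAA. No match was found in *Mtor*, *Rptor*, *Mlst8*, *Akt1s1* or *Tbc1d7*.

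The share of 3′ UTRs with a match depends on their length. Over 12965 genes, 38.7% of 3′ UTRs held a match, at 0.493 matches per kb and a median length of 1049 bases. *Rictor* held 4, whereas 3′ UTRs within 1.25-fold of its length held a mean of 2.06, and 78.4% of them held at least 1. For the length of *Rheb* the share with a match was 30.6%, and for that of *Tsc2* it was 25.9%. *Tsc1* held 1 match where the mean for its length was 1.97. *Mlst8* and *Rptor* held none at lengths of 2282 and 1925 bases, where 58.2% and 51.5% of 3′ UTRs did. *Deptor*, with the same number as *Rictor*, was near the mean for its length, which was 3.80. The consensus was drawn by the study from its own targets, so matches in *Rictor* and *Rheb* are not independent evidence of binding.

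The Pumilio motif (UGUANAUA, sense strand) was found once each in *Rictor*, *Rheb* and *Rptor*. Pumilio proteins are the usual partners of NANOS proteins in other animals, which is why the sites in the target genes are shown.
Rictor Pumilio motif: auaugcaaauuUGUACAUAaaguagcauga
Rheb Pumilio motif: aaauguauacuUGUAAAUAaaauagcugca
They lie at chr15:6797407-6797414, 1171 bases after the stop codon of *Rictor*, and at chr5:24803267-24803274, 390 bases after that of *Rheb*, where the match overlaps AAUAAA. *Rptor* held its motif at chr11:119897522-119897529, in exon 34 and 40 bases after the stop codon. Of all 3′ UTRs, 25.4% held the Pumilio motif. *Rictor* and *Rheb* were the members that held both motifs, which 15.1% of all 3′ UTRs did. Among 3′ UTRs of similar length the share with both was 44.4% for *Rictor* and 6.22% for *Rheb*. A match is a run of letters, and whether it is occupied was not analysed here.

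**Figure D1:**
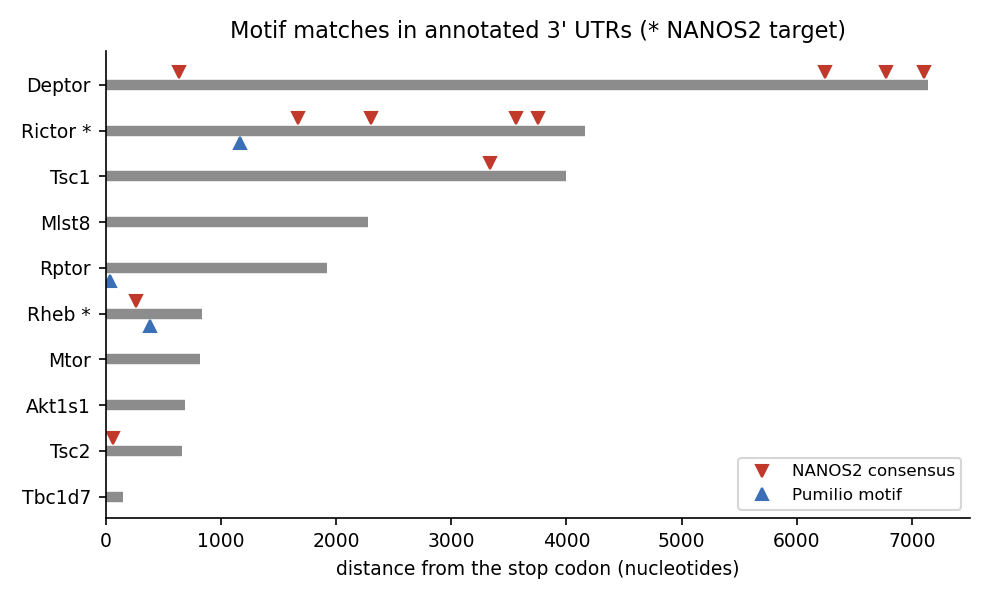
Annotated 3′ UTRs of the 10 genes as grey bars (distance from the stop codon in nucleotides), with matches to the NANOS2 consensus as red triangles above and to the Pumilio motif as blue triangles below. Asterisks mark the NANOS2 targets Rictor and Rheb, the members with both kinds of mark, and Deptor has as many red marks as Rictor on a longer bar.

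Expression was taken as FPKM, in which the reads of a gene are divided by its length and by a divisor for the depth of the library, with 1 library per line and no replicate. Whole reads could be recovered from the deposited values with divisors of 10908790 (Nanos2TAG/+) and 11738620 (Nanos2TAG/TAG). The recovered reads summed to 10931439 and 11627842. The sum in the Nanos2TAG/+ line was above its divisor, which is therefore not a plain total of reads. The 95% intervals below are exact Poisson intervals of those reads and cover counting error only. The lowest read count of these genes in a library was 183, for *Tbc1d7*, so counting error was not small for every gene. Of the 9 genes, 8 were above 10.5 FPKM, the median over all genes of the mean of both lines. Per kilobase, the kinase and *Tsc2* stood well above the rest, the scaffolds were intermediate, and *Rheb* and *Deptor* were lowest.

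*Mtor*, which encodes the kinase of both complexes, had 184.9 FPKM (180.4 to 189.6) in the Nanos2TAG/+ line and 205.0 (200.3 to 209.7) in the Nanos2TAG/TAG line. Its mean was above 95.8% of genes. The mTORC1 scaffold gene *Rptor* had 51.8 FPKM (49.3 to 54.4) and 49.4 FPKM (47.0 to 51.9), with intervals that overlapped. The mTORC2 scaffold gene *Rictor* had 46.3 FPKM (44.4 to 48.3) and 41.5 FPKM (39.8 to 43.3). The scaffolds of both complexes were thus at similar levels, above 81.3% and 78.7% of genes. By the deposited values *Rptor* was above *Rictor* in each line.

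Among the inhibitors, *Akt1s1* (PRAS40) had 62.4 FPKM (57.8 to 67.3) in the Nanos2TAG/+ line and 47.3 (43.4 to 51.4) in the Nanos2TAG/TAG line. *Deptor* had 5.88 FPKM (5.13 to 6.70) and 7.69 FPKM (6.86 to 8.59), and it was the one member below the median of all genes. *Rheb*, the activator of mTORC1, had 12.8 FPKM (11.4 to 14.3) and 8.86 FPKM (7.76 to 10.1), from 313 and 233 reads. It was close to the median of all genes, above 50.8% of them.

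The genes of the TSC complex were unequal. *Tsc2*, the subunit that acts on RHEB, had 165.5 FPKM (160.2 to 171.0) in the Nanos2TAG/+ line and 231.5 (225.4 to 237.7) in the Nanos2TAG/TAG line. *Tsc1*, which stabilises TSC2, had 15.4 FPKM (14.3 to 16.6) and 22.0 FPKM (20.7 to 23.4). *Tbc1d7*, the smallest subunit, had 16.0 FPKM (13.7 to 18.4) and 17.8 FPKM (15.5 to 20.3), from 183 and 220 reads. In both lines *Tsc2* was far above its partners. The counting intervals of *Tsc1* and *Tbc1d7* overlapped in the Nanos2TAG/+ line, and in the Nanos2TAG/TAG line *Tsc1* was the higher. In the order of levels, *Tsc2* and *Mtor* overlapped between lines, as did *Akt1s1* with *Rptor* and *Tsc1* with *Tbc1d7*, and the other neighbours did not.

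**Figure D2:**
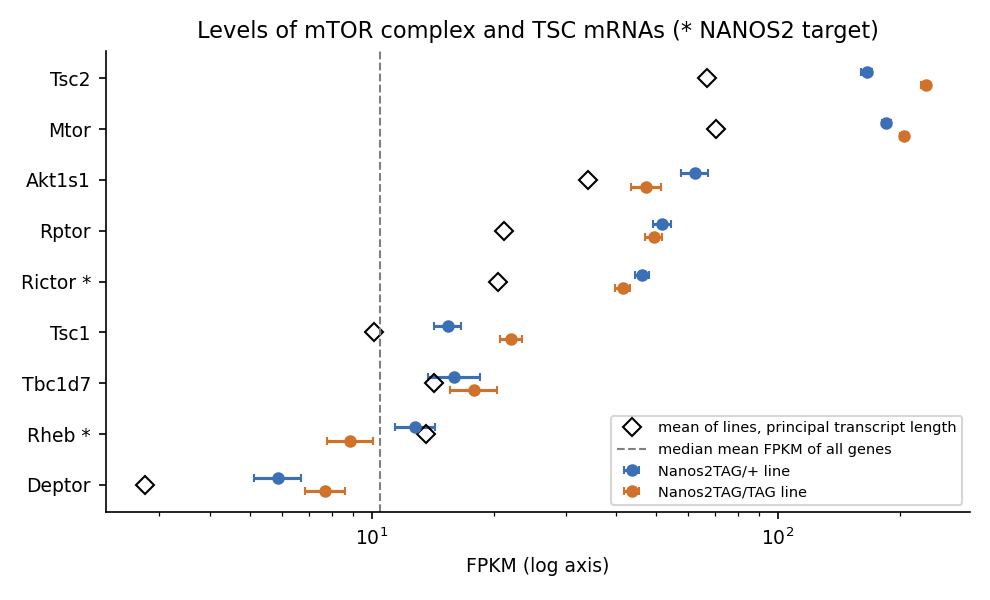
FPKM (log axis) of the 9 genes with an expression level, in the Nanos2TAG/+ line (blue) and the Nanos2TAG/TAG line (orange), with 95% counting intervals. Open diamonds give the mean of both lines on the length of 1 principal transcript, and the dashed line is the median of all genes at 10.5 FPKM. Mtor and Tsc2 lie highest by circles and by diamonds, and Rheb is the gene whose diamond lies at or right of both circles.

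The order between genes depended on the transcript length behind FPKM. The recovered reads showed that the deposited values divide by the mean length of all annotated transcripts of a gene, short and non-coding ones included. For *Mtor* that length was 3098.5 bases, whereas its principal transcript has 8564. For *Rheb* it was 2239.5 bases against 1784. With the same reads on the principal transcript, the mean level was 70.5 FPKM for *Mtor*, 66.8 for *Tsc2* and 34.1 for *Akt1s1*. *Rptor* came to 21.2 and *Rictor* to 20.5 FPKM, and their ranges across lines (20.7 to 21.7 and 19.4 to 21.6) overlapped, unlike with the deposited values. *Tbc1d7* came to 14.3, *Rheb* to 13.6, *Tsc1* to 10.1 and *Deptor* to 2.76 FPKM. On this length the range of *Rheb* across lines, 11.1 to 16.1 FPKM, overlapped that of *Tsc1* (8.34 to 11.96) and that of *Tbc1d7* (13.5 to 15.0), which did not overlap each other. *Rheb* was the 1 gene of the 9 whose level was higher than as deposited. *Rheb* stood above 64.2% of 12543 genes instead of 50.8%. *Mtor* and *Tsc2* remained the highest and *Deptor* the lowest. Lengths cancel between the lines, so the folds below do not depend on this choice.

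Between the lines, no member differed by more than 2-fold, whereas 20.3% of 12546 genes with a mean of at least 1 FPKM did, 11.7% higher and 8.67% lower in the Nanos2TAG/TAG line. Higher values in the Nanos2TAG/TAG line were found for 5 members and lower values for 4, and over all genes 49.8% were higher. The TSC genes were on the higher side, with a fold of 1.43 for *Tsc1* (counting interval 1.30 to 1.58), 1.40 for *Tsc2* (1.34 to 1.46) and 1.12 for *Tbc1d7* (0.914 to 1.37). *Deptor* had a fold of 1.31 (1.10 to 1.56) and *Mtor* of 1.11 (1.07 to 1.15). *Rheb* had the lowest fold, 0.692 (0.581 to 0.822), followed by *Akt1s1* at 0.758 (0.676 to 0.850), *Rictor* at 0.897 (0.844 to 0.952) and *Rptor* at 0.954 (0.890 to 1.02).

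The genes of the TSC complex and *Rheb*, on which it acts, were thus on opposite sides. The counting interval of the fold held 1 for *Rptor* and *Tbc1d7* and not for the other members. The share of all genes whose interval held 1 was not computed, so whether this is particular to these genes is not known. These intervals leave out any spread other than counting, and with 1 library per line there was no replicate check and no test. On the log2 scale (pseudocount 0.1) the differences ran from -0.53 for *Rheb* to 0.52 for *Tsc1*. The median difference over all genes was close to 0, and the median size of a difference was 0.44, which *Rheb*, *Tsc1* and *Tsc2* exceeded. Those 3 were larger in size than 56.6%, 55.8% and 53.3% of all genes, so each was an ordinary difference between these libraries.

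Some cell type markers also differed between the libraries. In bulk samples, fewer cells of a type and less RNA per cell cannot be told apart. Of 9 spermatogonial markers, 8 had FPKM and none was at 0. They summed to 556 FPKM in the Nanos2TAG/+ line and 830 in the Nanos2TAG/TAG line, with *Etv5* (46.0 and 178 FPKM) and *Ret* (73.2 and 181 FPKM) past 2-fold and *Gfra1* (56.2 and 111 FPKM) just under it. The germ cell marker *Ddx4* (31.0 and 41.4 FPKM) was also higher in the Nanos2TAG/TAG line. The remaining markers did not share that direction, since *Zbtb16* (107 and 102 FPKM), *Sall4* (214 and 192 FPKM), *Id4* (1.76 and 1.59 FPKM) and *Nanos2* itself (27.5 and 23.8 FPKM) were lower in the Nanos2TAG/TAG line. Of 10 fibroblast markers, 9 had FPKM, none of them at 0, with sums of 310 and 374 FPKM, most of it *Fn1* (254 and 280 FPKM). *Pdgfrb* was 0.660 and 6.75 FPKM, and *Col6a1* and *Dcn* were also past 2-fold. *Col1a1*, *Col1a2*, *Pdgfra*, *Twist1* and *Fn1* were higher in the Nanos2TAG/TAG line but not past 2-fold, and *Col3a1* (7.10 and 6.79 FPKM) was lower. Markers of differentiating spermatogonia, 4 of 4 with FPKM and led by *Kit*, summed to 67.3 and 52.2 FPKM, although *Dmrtb1* (3.67 and 4.86 FPKM) went the other way. Their part in the differences of the mTOR and TSC genes was not tested.

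Half-lives came from SLAM-seq, in which RNA is labelled with 4-thiouridine and the loss of the label, read as T-to-C conversions, is followed over a chase. The authors fitted 1 half-life for each transcript and line, with no error, so the difference between the lines is the only measure of spread. Over 5806 transcripts the median half-life was 224 min in the Nanos2TAG/+ line and 226 min in the Nanos2TAG/TAG line, and the median fold between a transcript's values was 1.20. The mean of both lines had a median of 223 min and quartiles of 165 and 291 min.

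*Mlst8*, *Rictor*, *Rptor* and *Akt1s1* were short-lived. *Mlst8*, the subunit of both complexes, had 96.0 min in the Nanos2TAG/+ line and 96.1 min in the Nanos2TAG/TAG line, the shortest mean of the set. *Rictor* had 109 and 136 min. *Rptor* had 61.3 and 196 min. *Akt1s1* had 128 and 162 min. The means of these 4 genes were below the lower quartile of all transcripts, which has 25% of them under it by definition, and each of them was below the median in both lines. Their percentiles were 4.53 for *Mlst8*, 10.9 for *Rictor*, 12.5 for *Rptor* and 17.8 for *Akt1s1*.

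*Mtor* had the longest half-life, 242.6 and 352.7 min, above 76.5% of transcripts by its mean. *Tsc1* had 178 and 251 min and *Rheb* 228 and 166 min, and each of them had 1 line above the median of that line and 1 below. By the mean of both lines, 6 of the 7 genes with a half-life were below the median of all transcripts, against 50% of transcripts by definition. In either line alone the count was 5. In the order of half-lives, *Mtor* overlapped *Tsc1* between lines, *Tsc1* overlapped *Rheb*, and *Akt1s1* overlapped *Rptor*, which overlapped *Rictor*. *Rheb* lay above *Akt1s1* with no overlap, and *Mlst8* lay below *Rictor* with none, although the range of *Rptor* spanned *Mlst8*.

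**Figure D3:**
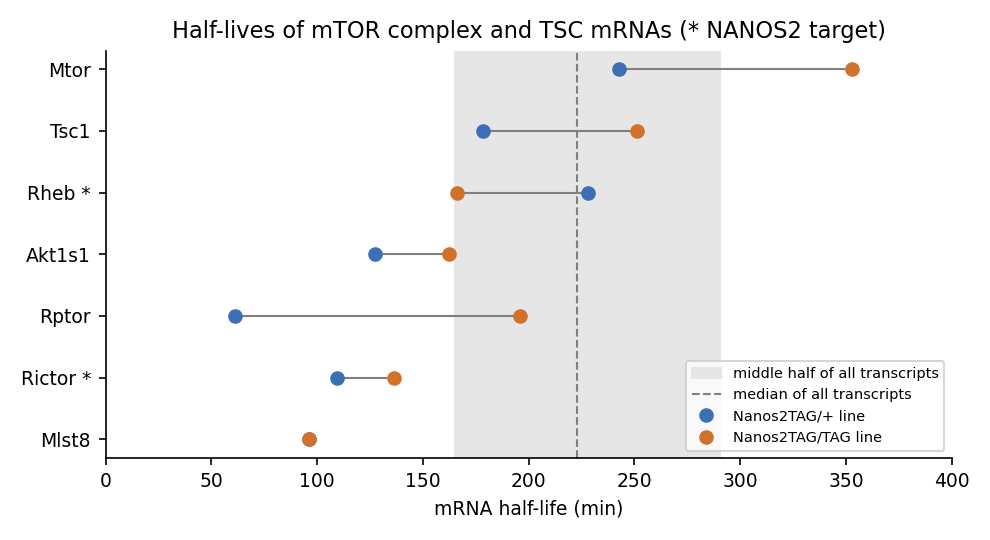
Half-lives (min) of the 7 genes with a value, in the Nanos2TAG/+ line (blue) and the Nanos2TAG/TAG line (orange), joined by a line. The dashed line is the median of all transcripts (223 min) and the grey band runs from 165 to 291 min. Mlst8, Rictor, Rptor and Akt1s1 lie left of the dashed line in both lines, and Rptor has the widest gap.

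Of the 7 genes, 6 had a longer half-life in the Nanos2TAG/TAG line, where 54.1% of all transcripts did. *Rheb* alone was shorter-lived there, at 0.729 of its value in the Nanos2TAG/+ line. For *Mlst8* the ratio was 1.00, and its direction turned when ratios were centred on the median of all transcripts. Ratios were 1.24 for *Rictor*, 1.27 for *Akt1s1*, 1.41 for *Tsc1* and 1.45 for *Mtor*. Only *Rptor* was past 1.5-fold, with 3.20, larger than 98.9% of transcripts, and no member was past it in the other direction. Past 1.5-fold were 10% of transcripts on the longer side and 10.7% on the shorter. The mean of *Rptor* thus rests on a pair of values that differ more than those of nearly all transcripts.

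Half-life rises with expression across transcripts in these tables, and the members lie at different levels. Each mean half-life was therefore divided by the running median of 501 transcripts nearest in mean FPKM. *Rictor* was at 0.516 of the value usual for its level, *Rptor* at 0.534 and *Akt1s1* at 0.594, lower than all but 5.20%, 6.06% and 9.08% of transcripts. *Mtor* was at 0.954, *Tsc1* at 1.04 and *Rheb* at 1.08. By line, with the Nanos2TAG/+ line first, *Rictor* was at 0.464 and 0.574, *Akt1s1* at 0.528 and 0.661 and *Rptor* at 0.255 and 0.793, so the place of *Rptor* rests mostly on the Nanos2TAG/+ line. *Rictor* and *Akt1s1* were thus below the value usual for their level by a similar amount in each line. *Mlst8* had no FPKM here and could not be placed.

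**Figure D4:**
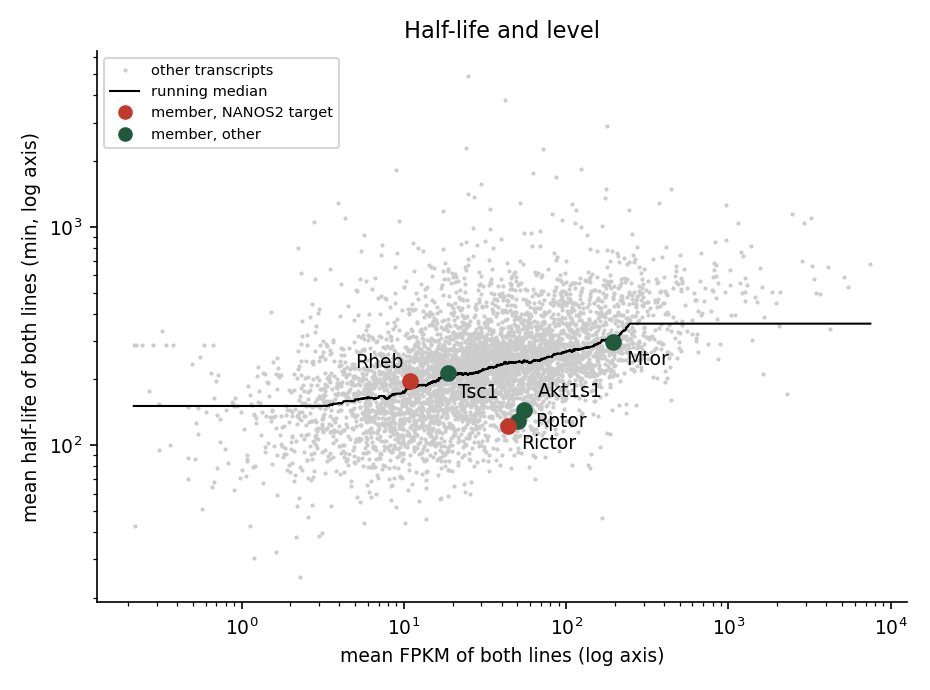
Mean half-life (min, log axis) against mean FPKM (log axis) for 5152 transcripts with both values (grey), with the running median over 501 transcripts (black), the NANOS2 targets Rictor and Rheb (red) and the other members (green). Mtor, Tsc1 and Rheb lie on or near the line, and Rictor, Rptor and Akt1s1 lie together below it.

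Of interest was whether the NANOS2 targets differed from the other members. *Rictor* and *Rheb* did not lie together. *Rictor* was short-lived for its level and *Rheb* was not. The members nearest to *Rictor* in the plot of half-life against level were *Rptor* and *Akt1s1*, which were not in the study's list of targets. The median of the mean half-lives was 160 min for the 2 targets and 145 min for the 5 others, which ranged from 96.0 to 298 min and so held both targets within their range. The direction of this difference turned with the line, since it was 169 against 128 min in the Nanos2TAG/+ line and 151 against 196 min in the Nanos2TAG/TAG line, and it also turned without *Rptor*. No difference was thus resolved in either direction with these numbers of genes.

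Relative to the running median at their level, the targets had a median of 0.798 and the 4 others with both values 0.774. By line these were 0.855 against 0.656 in the Nanos2TAG/+ line and 0.743 against 0.946 in the Nanos2TAG/TAG line. Among the 348 listed targets with a half-life, whose median was 187 min, *Rictor* was at percentile 19.0 and *Rheb* at 54.3. By line, *Rictor* was at 16.1 (Nanos2TAG/+) and 29.9 (Nanos2TAG/TAG), and *Rheb* at 70.4 and 39.4. *Rictor* was thus on the short-lived side of the targets in both lines, and *Rheb* was on either side of their middle.

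In expression, the targets had a median of 27.4 FPKM and the other 7 members 50.6 FPKM, which ranged from 6.78 to 198. The log2 difference was -1.21 with the deposited values and -0.34 on the length of the principal transcript, where the medians were 17.1 and 21.2 FPKM. Expression was part of the target ranking, so this is a description of how the list was made as much as of these genes.

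*Rictor* and *Rheb* did share the side on which the Nanos2TAG/TAG line lay in expression, with folds below 1, as did *Akt1s1* and *Rptor*. In half-life they were on opposite sides. For *Rheb*, expression and half-life were both lower in the Nanos2TAG/TAG line. For *Mtor* and *Tsc1* both were higher, and for *Rictor*, *Rptor* and *Akt1s1* expression was lower and half-life longer. The values come from separate libraries of the same lines, and these signs have no replicate.

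Genes of the wider pathway, 49 in all besides the members, were taken from lists by role, in which the highest, lowest, longest-lived and shortest-lived gene is named by the mean of both lines. Of these 49, 46 had FPKM, with a median of 26.8 against 43.9 for the 9 members. Past 2-fold in the Nanos2TAG/TAG line were 3 higher and 2 lower, against 11.7% and 8.67% of all genes. A half-life was available for 30, with a median of 233 min against 145 min for the 7 members and 223 min for all transcripts. Of the 30, 13 were below the median of all transcripts, 2 were past 1.5-fold longer and 6 past 1.5-fold shorter in the Nanos2TAG/TAG line, against 10% and 10.7% of all transcripts. The short half-lives of most members were thus not a feature of the whole pathway, though short-lived transcripts were found within it.

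The Ragulator and Rag GTPases place mTORC1 on the lysosome, beside RHEB. All 9 had FPKM, with a median of 15.2 FPKM, from *Lamtor1* (221 and 267 FPKM) down to *Rragb* (3.25 and 2.03 FPKM). *Rragd*, a Rag GTPase, was past 2-fold, with 113 FPKM in the Nanos2TAG/+ line and 41.3 in the Nanos2TAG/TAG line. The median half-life of the 6 with a value was 229 min, and 3 were below the median. *Rragc* was the shortest-lived, with 92.2 and 120 min, and *Rragd* the longest-lived, with 336 and 315 min. *Lamtor5* was past 1.5-fold, with 292 and 191 min. *Lamtor2* and *Lamtor3* of the Ragulator were in the study's list of targets. *Lamtor3* had 103 and 135 min, close to *Rictor*, with 19.6 and 10.7 FPKM, and *Lamtor2* had 15.2 and 12.7 FPKM with no half-life.

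GATOR1, GATOR2, KICSTOR and the sestrins report amino acid supply to the Rag GTPases, and *Flcn*, *Fnip1* and *Fnip2* act on the Rag GTPases directly. Of these 17 genes, 16 had FPKM, with a median of 24.8 FPKM and none past 2-fold. *Depdc5* was the highest (84.2 and 103.7 FPKM) and *Fnip1* the lowest (4.26 and 2.73 FPKM). The 8 half-lives had a median of 197 min, and 5 were below the median of all transcripts. *Wdr24* of GATOR2 had 177 and 43.7 min and *Wdr59* 259 and 140 min, both shorter past 1.5-fold, whereas *Kptn* of KICSTOR had 64.6 and 395 min, a gap wider than that of *Rptor*. *Mios* of GATOR2, a listed target, was the longest-lived by the mean, with 289 and 257 min, and had 10.3 and 11.7 FPKM.

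Upstream kinases and stress inputs, 8 genes, had a median of 38.5 FPKM. *Akt2* was the highest, with 169 and 139 FPKM. The lowest was *Prkaa1*, a catalytic subunit of AMPK, past 2-fold with 2.25 and 5.35 FPKM. *Ddit4* (REDD1), which inhibits mTORC1 under stress through the TSC complex, was past it in the other direction, with 54.3 and 18.1 FPKM. The 6 half-lives had a median of 256 min. *Pdpk1*, the kinase that activates AKT, was the longest-lived by the mean and differed past 1.5-fold, with 472 and 262 min. *Sgk1*, a substrate kinase of mTORC2, was the shortest-lived by the mean, with 200 and 201 min, although *Ddit4*, with 238 and 196 min, was below it in the Nanos2TAG/TAG line.

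Of 8 substrates of mTORC1, 7 had FPKM, with a median of 70.0. *Eif4ebp1*, a repressor of cap-dependent translation, was the highest (172 and 202 FPKM), although *Larp1*, which binds mRNAs of the translation machinery, was above it in the Nanos2TAG/TAG line (162 and 206 FPKM), and *Grb10* was the lowest (7.27 and 5.82 FPKM). *Tfeb*, the transcription factor of lysosomal genes, was past 2-fold, with 24.9 and 65.8 FPKM, and its half-life was past 1.5-fold on the shorter side, with 279 and 176 min. *Ulk1*, the kinase that starts autophagy, had the shortest half-lives of these, 157 and 95.05 min, and *Eif4ebp2* the longest by the mean, 263 and 327 min. The 5 half-lives had a median of 228 min.

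Among the mTORC2 partners of *Rictor*, *Mapkap1* (SIN1) had 71.1 and 51.3 FPKM with 268 and 254 min. *Prr5* (Protor-1) had 51.1 and 86.7 FPKM and the widest gap in half-life of the pathway, 175 and 1745 min, the longer of them past the last chase time of 1440 min. *Prr5l* was listed at 0 in the Nanos2TAG/+ line and at 2.07 FPKM, from 34 reads, in the Nanos2TAG/TAG line. Of the TTT chaperones that assemble mTOR, *Tti1* had 83.5 and 88.3 FPKM with 243 and 256 min, *Tti2* 11.1 and 10.9 FPKM with 188 and 219 min, and *Telo2* 20.9 and 28.7 FPKM. *Rhebl1*, the relative of *Rheb*, had no FPKM here and half-lives of 228 and 252 min.

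**Figure D5:**
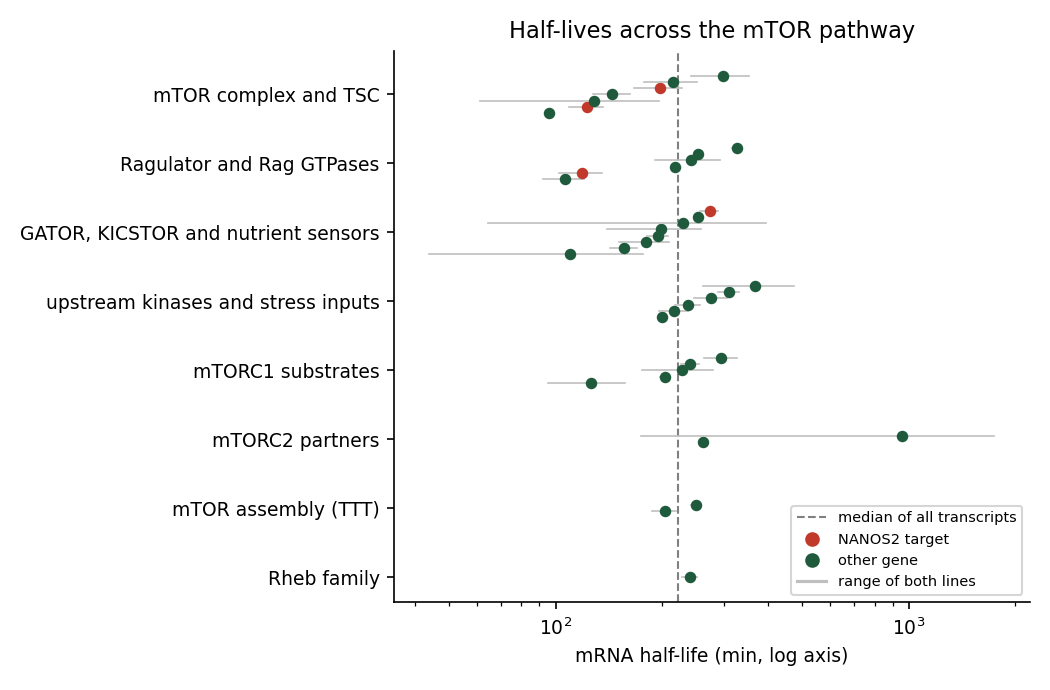
Half-lives (min, log axis) of the mTOR complex and TSC genes and of the pathway lists, as the mean of both lines (points) with the values of the lines as a grey bar, and NANOS2 targets in red. The dashed line is the median of all transcripts at 223 min. Most members lie left of it, the pathway lists lie on both sides, and Prr5, Kptn, Wdr24 and Rptor have the widest bars.

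The genes most like each member were the 3 with the smallest sum of squared differences over 4 values, log2 FPKM and log2 half-life in both lines. *Rictor* had close neighbours, *Pan3*, *Brf2* and *Zfp787*, with sums from 0.0162 to 0.0300. *Pan3* had 44.9 and 39.3 FPKM with 116 and 136 min. *Rheb* was nearest to *Rufy1* (sum 0.0295, with 12.8 and 8.32 FPKM and 212 and 155 min), *Mrpl47* and *Tent5c*. *Mtor* was nearest to *Git1*, *Atp5f1* and *Agpat1*, *Tsc1* to *Polb*, *Arhgap23* and *Card10*, and *Akt1s1* to *Mypop*, *Fbxo42* and *Zbed5*. *Rptor* had no neighbour as close, since its nearest, *Cinp*, *Smad3* and *Kmt5a*, were at sums of 0.200 to 0.411.

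The RNA-seq reads of these genes could be placed in the genome. Of the 50-base stretches of their exons, 95.5% (*Tsc2*) to 100% (*Mtor*, *Rictor*, *Mlst8*, *Akt1s1* and *Tsc1*) occurred once, with 99.1% for *Rheb*. Exons of other genes overlap some of them on the opposite strand. *Bricd5* covers 22.5% of the exonic bases of *Mlst8*, *Pkd1* 7.20% of those of *Tsc2*, *Gm9920* 3.41% of those of *Deptor*, *Tbc1d17* 2.90% of those of *Akt1s1* and *Rptoros* 0.624% of those of *Rptor*. The strand setting of the count is not given in the sources used here, so reads from these stretches cannot be told apart. *Mtor*, *Rictor*, *Rheb*, *Tsc1* and *Tbc1d7* have no such overlap.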

How the data were processed

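The authors deposited RNA-seq values as FPKM (ribosomal RNA-depleted total RNA, SENSE kit, 50-base single-end reads) and SLAM-seq half-lives in minutes (SlamDunk, first-order decay fitted with nls, technical replicates collapsed). The RNA-seq aligner and the filter behind the half-life tables are not given in the sources used here. Whole reads were recovered from FPKM with the mean length of the transcripts of a gene in GENCODE M21, which gave whole reads (within 0.02) for 100% of 13867 of 13904 genes, and the recovery was tested on simulated data. With 1 library per line no test was run. Differences were described with a pseudocount of 0.1, thresholds of 2-fold (mean FPKM of at least 1) and 1.5-fold (half-life), counting intervals and the share of all genes past the same limit. The genes, their lists and the alternatives were chosen with earlier results of these data known. All 10 members were named, and pathway genes where they were the highest or lowest of their list, past a threshold or listed targets. All genes of the 3 smallest pathway groups, *Larp1*, *Flcn*, *Fnip2*, *Kit* and *Dmrtb1* were named after their values were seen. So were the fibroblast and spermatogonial markers not past a threshold. The 3′ UTRs came from APPRIS principal transcripts. The 4 CRAC samples were not analysed here. Analyses used Python 3.11.15, numpy 2.4.6, pandas 2.3.3, scipy 1.17.1 and matplotlib 3.10.9.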

Additional observations from a re-analysis of the deposited data

How the results depend on the processing

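No member passed 2-fold in FPKM with a pseudocount of 1, with no lower limit on FPKM or with the other settings tried, and the 18 recomputed log2 differences kept their direction. The number of genes with a mean half-life below the median, 6, was 5 in each line alone and 5 without *Rptor*. The half-life of the targets less that of the other members was 15.2 min, and 41.2 min in the Nanos2TAG/+ line, but -44.8 min in the Nanos2TAG/TAG line alone and -19.8 min without *Rptor*. At that expression it was 0.024 of the running median and 0.198 in the Nanos2TAG/+ line, but -0.203 in the Nanos2TAG/TAG line and -0.0760 with FPKM on the principal transcript. In log2 FPKM it was -1.21 and moved to -0.34 on the principal transcript. The log2 half-life ratio of *Mlst8*, 0.00, was -0.035 once centred. The alternatives without *Rptor*, on the principal transcript and among listed targets were chosen after seeing the data. Of the percentiles, 21 moved and 51 did not. A percentile falls by construction when genes under 1 FPKM are left out, and the principal transcript changes FPKM itself. The cause of the other moves was not tested. No paired analysis was possible because each line gives 1 FPKM and 1 fitted half-life per gene. Half-lives have no depth or error, and FPKM intervals cover counting error only.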

Other observations

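From both tables together, the FPKM lost per hour at steady level (FPKM times ln 2 over half-life) can be given for the 6 genes with both values. It was 31.7 FPKM per hour for *Mtor* in the Nanos2TAG/+ line and 24.2 in the Nanos2TAG/TAG line, 17.6 and 12.7 for *Rictor*, 20.3 and 12.1 for *Akt1s1* and 35.2 and 10.5 for *Rptor*. *Tsc1*, with 3.58 and 3.65, and *Rheb*, with 2.34 and 2.22, were about alike in both lines and below the other 4 in each. *Rptor* was above 95.4% of transcripts in one line and 69.5% in the other, and *Rheb* above 21.5% in both. This quantity uses the lengths behind the deposited FPKM and holds only if levels were steady over the chase.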
